A study of Mus musculus with 468 samples.

Results

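In the adipose tissue of outbred mice, a small set of animals carried far more Cwc22 transcript than the others, and the transcripts that separated these animals from the rest are described here. The 35 Cwc22-high libraries were selected on their measured Cwc22 values: a library entered the set when its Cwc22 level was above 5 times the median of all libraries. They made up 7.48% of the series, and all other libraries form the rest. Levels are given as CPM, a gene's count in each 1000000 counts of its library. Each library came from 1 Diversity Outbred mouse, an outbred stock bred from several inbred founder strains, and every mouse ate a diet rich in fat and sugar, labelled as 45 percent fat. Per the methods of the study, animals of both sexes and of several breeding generations were taken at 1 age, but the labels give neither sex nor generation. No group of the study separates these libraries, and no allele, treatment or genotype was assigned to them here. The 10 adipocyte markers (Adipoq, Plin1 and others) summed to 17178 to 30562 CPM in the Cwc22-high libraries and to 8852 to 32070 CPM in the rest, so both sets carried the labelled tissue. Totals per library ranged from 65900000 to 129800000 expected counts in the Cwc22-high libraries and from 35300000 to 137800000 in the rest (rounded). In bulk tissue, fewer cells of a type and less RNA per cell cannot be told apart.

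CWC22 is a splicing factor. It brings EIF4A3, the core helicase of the exon junction complex, to the spliceosome, so that a mark is left on spliced messenger RNA near each exon boundary, and that mark feeds export, translation and nonsense-mediated decay. In mice the gene lies in a segment called R2d that differs in copy number between strains, with many copies in WSB/EiJ, which is among the founders of the stock. Genotypes were not analysed here, so whether the Cwc22-high mice shared a founder segment was not tested. All distances below start from the place of Cwc22 in GRCm38, and where further copies lie in these mice was not examined.

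Cwc22 (ENSMUSG00000027014, GRCm38 chr2:77881159-77946375, minus strand) stood at 306.4 CPM in the lowest, 644.6 in the median and 876 in the highest Cwc22-high library. In the rest the lowest library held 13.6 CPM, the median 22.98 and the highest 45.4. The 2 sets are apart by construction, and no test was made, but the gap between them was wide: the lowest selected library stood 6.74 times above the highest library that was not selected. The ratio of medians was 28.05. Cuts at 3 and at 10 times the median chose the same 35 libraries. The level was much the same in libraries without Ddx3y counts (median 644.6 CPM, 21 libraries) and with them (median 710.7 CPM, 14 libraries), Ddx3y being a Y-linked helicase gene.

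**Figure D1:**
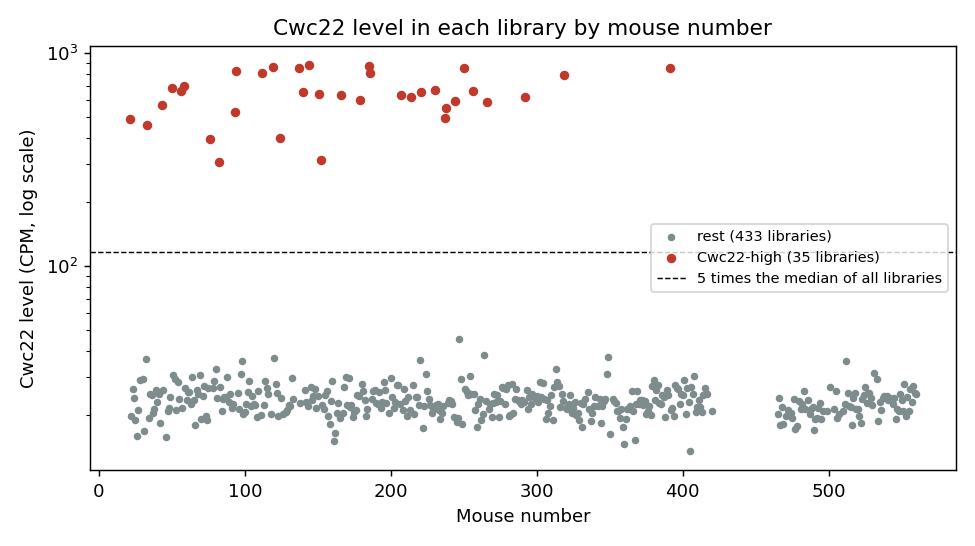
Cwc22 level in CPM (log scale, vertical) against mouse number (horizontal), 1 point per library, with the 35 Cwc22-high libraries in red, the other libraries in grey and the threshold as a dashed line. The red points lie between 306.4 and 876 CPM, no point lies between 45.4 and 306.4 CPM, and the red point farthest to the right is mouse DO391.

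The Cwc22-high mice carried lower mouse numbers. Their numbers ran from DO021 to DO391 with a mean of 164.7 ± 89.01 (SD, n = 35), against 282.9 ± 154.4 (SD) in the rest, and the difference of -118 had a two-sided permutation p of 2e-05. In 5 consecutive blocks of mouse number, 12 of 94, 12 of 93, 9 of 94, 2 of 93 and 0 of 94 libraries were Cwc22-high, the last of which allows a share of up to 3.19% by counting error alone. What the mouse number stands for is not given in the labels, so its part in these results is carried as a covariate. The library number did not separate the sets, with a mean difference of -4.10 (two-sided permutation p = 0.87). Ddx3y counts were present in 40% of the Cwc22-high libraries and in 52.4% of the rest, an odds ratio of 0.61 with a 95% interval from 0.28 to 1.29 (two-sided Fisher's exact test, p = 0.16).

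With mouse number and Ddx3y status as covariates, 44 of 18379 tested genes differed between the sets (0.239% of those tested, edgeR quasi-likelihood test, Benjamini-Hochberg adjusted p under 0.05). Of these, 34 were higher (0.185%) and 10 lower (0.0544%) in the Cwc22-high libraries. By place, 10 lay within 10 Mb of Cwc22, 3 lay elsewhere on chromosome 2 and 31 lay on other chromosomes. As shares of the genes tested in each place, these were 7.46% within 10 Mb and 0.183% on other chromosomes. First come a few noncoding transcripts and 1 cytokine gene that were high across nearly all Cwc22-high libraries. Genes within 10 Mb of Cwc22, genes whose call rests on 1 or a few libraries and the remaining named genes follow. A limma fit on log2 CPM, in which single extreme libraries weigh less, called 21 genes (0.114%), 18 of which were also among the 44.

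The most widely separated transcripts share stretches of sequence with each other, and reads from such stretches are divided between genes by estimation, so their levels are uncertain one by one. The sequences below come from GENCODE M21 transcripts on GRCm38, are written 5′ to 3′, and are shown because they tie together genes that were called in the same comparison. Capitals mark bases inside the longest exact run that both genes share, and lower case marks bases outside it. The first pair shares a 55-base run that is the 3′ end of Il1f9 (chr2:24193526-24193555, plus strand, last exon) and the 5′ end of Gm19757 (chr6:105492627-105492656, minus strand, first exon).
Gm19757: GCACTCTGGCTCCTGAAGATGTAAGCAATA
Il1f9: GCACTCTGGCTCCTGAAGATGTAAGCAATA
The next pair stands for 8 transcripts on chromosomes 4, 5, 7, 8, 9 and X that overlap piece by piece in repeated sequence, partly on opposite strands, not every pair of them sharing a 30-base word (chr5:30760108-30760137, plus strand, and the reverse complement of chr4:47101133-47101162, plus strand).
Gm42764: AAGTTTTCATTAGCTTCCCCcctgttgggc
Gm12424: AAGTTTTCATTAGCTTCCCCtctgttgggc
The third set holds Hnrnpa3 and 2 pseudogenes of it, with an 825-base run in common (chr2:75661778-75661807, exon 3, chr3:54481702-54481731 and chrX:80456975-80457004, all on the plus strand).
Hnrnpa3: tgggcgtgtgGTGGAACCGAAGAGAGCTGT
Gm5641: tgggcgtgtgGTGGAACCGAAGAGAGCTGT
Gm5940: tgggcgtgtaGTGGAACCGAAGAGAGCTGT
The last pair is Cwc22 itself (chr2:77921498-77921527, minus strand, exon 9) with Gm13697, an intronless gene 6.10 Mb away that resembles it (chr2:83985562-83985591, plus strand), over a long exact run.
Cwc22: CTGGAGATGCTCACTTTGCTactagagaga
Gm13697: CTGGAGATGCTCACTTTGCTcctggagaga

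The long noncoding RNA Gm19757 (chr6:105481266-105492668) had the largest difference. It held 2.36 CPM in the lowest, 5.90 in the median and 9.76 in the highest Cwc22-high library, against 0, 0.20 and 3.59 CPM in the rest. Of the 35 Cwc22-high libraries 31 stood above every other library, and 2 of the others reached above the lowest of the 35. The log2 difference was 4.25 ± 0.16 (SE, edgeR adjusted p = 1.58e-91). The gene lies outside the rule for named genes because of its low mean level, and was singled out after its values were seen.

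Il1f9, which encodes the interleukin 1 family cytokine IL-36 gamma, lies on chromosome 2 (chr2:24186476-24193568) but 53.7 Mb from Cwc22. Its lowest, median and highest levels were 5.54, 12.5 and 17.8 CPM in the Cwc22-high libraries and 0.024, 0.62 and 16.96 CPM in the rest, for a log2 difference of 2.92 ± 0.22 (SE, edgeR adjusted p = 1.36e-30). The sets overlapped, since 17 of the others stood above the lowest Cwc22-high library. In the rest 28.2% of libraries stood above 2 CPM, as did all 35 Cwc22-high libraries. Gm19757 and Il1f9 share 26 of the 30-base words in their transcripts, and how reads from the shared end were divided between them was not tested. Summed, they stood at 8.44, 18.4 and 27.5 CPM in the Cwc22-high libraries (lowest, median, highest) and at 0.13, 0.80 and 20.5 CPM in the rest.

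The 8 transcripts with repeats in common are Gm42900, Gm11261, Gm42764, Gm15758, Gm44873, Gm43622, Gm14654 and Gm12424, annotated as unconfirmed or noncoding transcripts and processed pseudogenes, and they were put together by comparing the sequences of genes already called in this comparison, so that all 8 are higher in the Cwc22-high libraries follows from how they were chosen. Gm42900 (chr5:107254338-107256504, overlapping Tgfbr3 on the same strand) held 12.6, 24.03 and 37.2 CPM (lowest, median, highest) against 2.48, 6.19 and 31.7 CPM in the rest, a log2 difference of 1.73 ± 0.11 (SE, edgeR adjusted p = 3.97e-44). All 35 Cwc22-high libraries stood above the median of the rest, and 34 of the others reached above the lowest of them. Gm42764 (chr5:30759032-30760477), inside Dpysl5 on the same strand, held 8.10, 16.3 and 25.3 CPM against 0.48, 2.03 and 18.7 CPM (log2 difference 1.98 ± 0.18, edgeR adjusted p = 4.15e-22). In the rest 38.6% of libraries stood above 3 CPM, as did all 35 Cwc22-high libraries. Gm11261 (chr4:78659858-78661588, 5.28 CPM against 1.83, medians) rose by 1.26 ± 0.11 on the log2 scale (edgeR adjusted p = 1.70e-23).

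Differences were smaller in 4 of the other 5 repeat-sharing transcripts. Gm15758 rose by 0.83 ± 0.12, Gm44873 by 0.55 ± 0.083, Gm14654 by 0.54 ± 0.11 and Gm43622 by 0.37 ± 0.074 on the log2 scale (SE, edgeR adjusted p of 4.92e-09, 1.23e-07, 0.0022 and 0.00071). Gm12424 was of another kind, with medians of 0.53 and 0.46 CPM but 10 Cwc22-high libraries above every other library and a highest value of 7.75 CPM. Summed, the 8 transcripts stood at 46.3, 81.5 and 127.5 CPM (lowest, median, highest) against 14.6, 35.4 and 102.9 CPM. Of 19 further genes in the files that share at least 100 of the 30-base words with one of the 8, 18 were tested. Of these 18, 1 was called, beside 0.239% of all tested genes. It was Gm11851, whose highest values of 12.5 and 8.39 CPM came from 2 libraries. The median log2 difference of the 18 was 0.021, against 0.00083 over all tested genes. The protein-coding Xdh, which carries a piece of the repeats, had medians of 344.9 and 345.2 CPM. Of 23180 genes in the files, 15 (0.0647%) share a 30-base word with Gm42764, the lowest share among the 8. The share was 0.233% for Gm43622 and 8.68% for Gm42900, which includes simple repeats. Of the 21 other genes compared, 5, 7 and 5 share such a word with Gm42764, Gm43622 and Gm42900. Those 21 were called genes and genes added by hand, so these counts describe the grouping and do not test it.

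**Figure D2:**
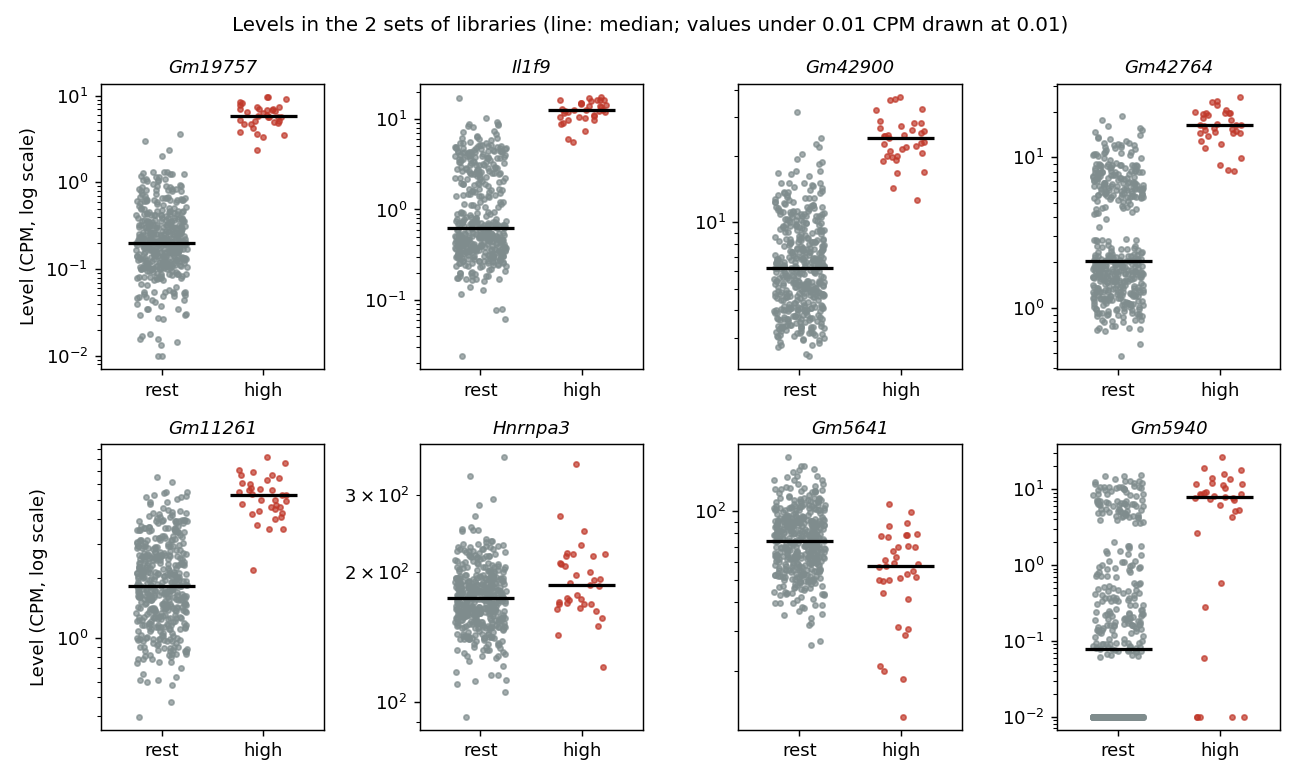
Levels in CPM (log scale) of 8 genes in each library, with the other libraries in grey and the 35 Cwc22-high libraries in red, black lines at the medians, and values under 0.01 CPM drawn at 0.01. Gm19757 barely overlaps between the sets, and Il1f9, Gm42900 and Gm42764 are high in all Cwc22-high libraries and in some others. Gm11261 is higher but overlaps more widely, Hnrnpa3 overlaps fully, Gm5641 is lower and Gm5940 higher.

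Within the 35 Cwc22-high libraries the same transcripts tracked the Cwc22 level. The libraries were chosen by that level, and the 44 genes by the split it made. These relations therefore describe the calls and are not separate evidence for them. Of the 44 called genes, 5 related to log2 Cwc22 with an adjusted p under 0.05, all positively. Il1f9 had Pearson's r of 0.87 and Spearman's rho of 0.81 (n = 35, permutation p = 1e-05 for both, the smallest that 100000 permutations can give, Benjamini-Hochberg adjusted p of 0.00015 and 0.00044 over 44 relations), and r was 0.78 without the 2 libraries farthest from the median Cwc22 level. Gm19757 had r of 0.76 and rho of 0.58 (permutation p = 1e-05 and 0.00041, adjusted 0.00015 and 0.0045), and r of 0.65 without those 2 libraries. Gm42900 followed with r of 0.68 and rho of 0.64 (permutation p = 1e-05 and 4e-05, adjusted 0.00015 and 0.00088), and r of 0.62 without them. The relation of Gm11261 (r = 0.54, rho = 0.59, permutation p = 0.0011 and 0.00021, adjusted 0.012 and 0.0031) and of Gm42764 (r = 0.50, rho = 0.55, permutation p = 0.0022 and 0.00075, adjusted 0.020 and 0.0066) was weaker, with r of 0.50 and 0.64 without the 2 libraries. On either side of the Ddx3y split r for Il1f9 was 0.87, and all 5 genes had a positive r on both sides. In the rest, r with Cwc22 lay between -0.018 and 0.16 for these 5 genes.

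**Figure D3:**
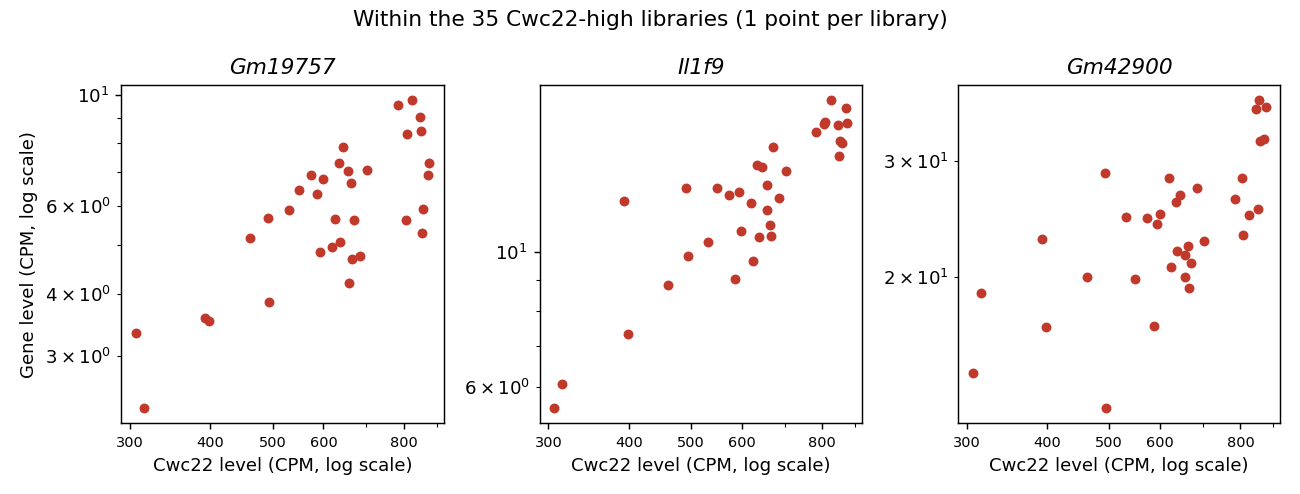
Levels in CPM of Gm19757, Il1f9 and Gm42900 (vertical, log scale) against the Cwc22 level in CPM (horizontal, log scale) in the 35 Cwc22-high libraries, 1 point per library. All 3 genes rise with Cwc22, with r of 0.76, 0.87 and 0.68 on the log scale.

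The difference of the leading genes was seen in each block of mouse number that could be compared. Gm19757 stood 26.01, 31.7 and 28.5 times above the rest in the first 3 blocks (ratio of medians, 12, 12 and 9 Cwc22-high libraries). Il1f9 stood 19.5, 18.7 and 23.03 times above, and Gm42900 3.69, 3.65 and 3.71 times. The 4th block held 2 Cwc22-high libraries, too few for a value, and the 5th held none.

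Genes within 10 Mb of Cwc22 were called more often than genes elsewhere. The log2 differences of those called ran from -1.34 (Prg2) to 1.06 (Pde11a). The 5 nearest tested genes on each side were not among the calls of edgeR or limma. Within 10 Mb of Cwc22, 10 tested genes (7.46% of those there) passed in edgeR, against 0.239% of all tested genes, 5 higher and 5 lower. limma also called 10 genes there, but not the same set. Its calls took in Olfr1033 (log2 difference -2.14, limma adjusted p = 0.00034) and Olfr1034 (-1.33, limma adjusted p = 0.017), which edgeR did not call. By distance, the edgeR calls were 2 of 18 genes under 2 Mb, 2 of 43 at 2 to 5 Mb and 6 of 73 at 5 to 10 Mb. Beyond that the share was back near the background: of the 99 genes at 10 to 20 Mb none was called by edgeR, DESeq2 or limma and 6 had an unadjusted p under 0.05, 1 (0.709%) passed at 20 to 40 Mb and 2 of 1061 beyond. Called or not, genes within 10 Mb had a median absolute log2 difference of 0.092, beside 0.047 over all tested genes. Mice that share a stretch of chromosome share the genes on it, and the part of shared haplotypes in these calls was not tested.

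On the distal side, Tfpi was the firmest neighbour. Tfpi encodes tissue factor pathway inhibitor, a brake on blood clotting made largely by endothelial cells, and lies 6.55 Mb from Cwc22 (chr2:84432855-84476775). Its lowest, median and highest levels were 17.01, 36.4 and 65.9 CPM in the Cwc22-high libraries and 8.24, 25.6 and 54.2 CPM in the rest, a log2 difference of 0.44 ± 0.067 (SE, edgeR adjusted p = 2.41e-07). The sets overlapped widely, but 30 of 35 Cwc22-high libraries stood above the median of the rest, and the ratio of medians was 1.32, 1.35 and 1.27 in the first 3 blocks of mouse number. Fam171b (5.93 Mb away) rose by 0.44 ± 0.088 on the log2 scale, from a median of 4.66 to 6.66 CPM (edgeR adjusted p = 0.00053). Ssrp1 (7.16 Mb away), a subunit of the histone chaperone FACT, rose by only 0.10 ± 0.018, from 68.1 to 71.3 CPM (edgeR adjusted p = 2.88e-05).

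Lower on the distal side were Gm13688, Prg2 and Selenoh. Gm13688, a processed pseudogene that shares words with the ribosomal protein gene Rpl15 and its other copies, fell by 0.84 ± 0.14 on the log2 scale from a median of 0.24 to 0.11 CPM (edgeR adjusted p = 4.38e-06), with 3 of 35 Cwc22-high libraries above the median of the rest. Prg2, the major basic protein of eosinophils, fell by 1.34 ± 0.31 at levels of 0.12 and 0.060 CPM (medians, edgeR adjusted p = 0.0084). Selenoh, a nucleolar selenoprotein, fell by 0.19 ± 0.046, from 5.73 to 4.87 CPM (edgeR adjusted p = 0.030), and 7 of 35 Cwc22-high libraries stood above the median of the rest. It was not called by limma (adjusted p = 0.11) or with counts capped at the 99th percentile (edgeR adjusted p = 0.074). Its call was made in 12 of 16 other settings.

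On the proximal side, 4 neighbours passed. Pde11a, a phosphodiesterase for cyclic nucleotides 1.89 Mb away, had a log2 difference of 1.06 ± 0.22 (edgeR adjusted p = 0.00092), with medians over all libraries of 0.50 and 0.43 CPM. Its level went with Ddx3y status: the medians were 0.29 CPM in Cwc22-high libraries and 0.11 CPM in the rest without Ddx3y counts, and 3.91 and 1.53 CPM with them, ratios of 2.70 and 2.55. By block of mouse number, with Ddx3y status left aside, the ratio of medians was 2.75, 0.95 and 0.91 in the first 3 blocks. Ttc30a1, a component of the intraflagellar transport machinery 1.90 Mb away, fell by 0.30 ± 0.076 from 2.58 to 2.01 CPM (medians, edgeR adjusted p = 0.048). Its log2 difference was -0.28 in limma (adjusted p = 0.13) and -0.31 without mouse DO021 (edgeR adjusted p = 0.052). The call of Ttc30a1 was made in 6 of 16 other settings. Gm13632, a long noncoding RNA 7.003 Mb away, fell by 0.99 ± 0.15 from 0.86 to 0.34 CPM (edgeR adjusted p = 5.81e-07), and it shares 130 of the 30-base words with Gm19757 on the opposite strand, so its reads are not certain to be its own.

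Hnrnpa3, 2.22 Mb proximal of Cwc22, encodes an RNA-binding protein of the hnRNP family, and its call has to be read with its pseudogenes. Its lowest, median and highest levels were 120.6, 186.3 and 354.6 CPM against 92.5, 173.5 and 366.96 CPM, a log2 difference of 0.15 ± 0.030 (SE, edgeR adjusted p = 0.00058). Gm5641 on chromosome 3, whose whole length of 1488 bases is contained in an Hnrnpa3 transcript, went the other way, from 25.98, 74.4 and 171.99 CPM in the rest to 12.7, 57.6 and 107.3 CPM, and fell by 0.37 ± 0.066 (edgeR adjusted p = 4.93e-05). Gm5940 on chromosome X, with 1009 shared 30-base words, did not pass the filter on low counts, and without that filter it was higher by 2.51 ± 0.48 on the log2 scale (edgeR adjusted p = 2e-04, where 66 of 23179 genes or 0.285% were called). It stood above 1 CPM in 27 of 35 Cwc22-high libraries and in 22.6% of the others.

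Added together, the 3 Hnrnpa3-like genes hardly differed. The sum had a median of 252.8 CPM in the Cwc22-high libraries and 250.5 CPM in the rest, a ratio of 1.01, with ranges of 153.9 to 467.2 and 133.3 to 474.2 CPM. The 3 genes therefore moved in different directions while the medians of their total stayed close, and how reads were divided between them was not tested. Of 20 other genes in the files that share at least 100 words with them, 9 were tested and none was called by edgeR with the filter or without it, at a median log2 difference of 0.11.

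Gm13697, the gene that resembles Cwc22, was likewise under the filter on low counts. Its lowest, median and highest levels were 0.66, 1.09 and 5.42 CPM in the Cwc22-high libraries and 0, 0.0099 and 2.77 CPM in the rest, and without the filter it was higher by 2.76 ± 0.42 on the log2 scale (edgeR adjusted p = 2.78e-07). It shares 1571 of the 30-base words with Cwc22, so this difference cannot be told apart from Cwc22 reads assigned to it. The only other genes in the files that share such words with Cwc22 were Hdx and Gm7340, and Hdx differed by 0.062 ± 0.10 (log2, edgeR adjusted p = 0.99) and Gm7340 by 0.065 ± 0.30 (edgeR adjusted p = 1.00). None of the 18 genes called by both edgeR and limma shares a 30-base word with Cwc22. Only annotated GRCm38 transcripts were compared, without introns or founder sequences. Whether reads from Cwc22 were assigned to these genes was therefore not tested.

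**Figure D4:**
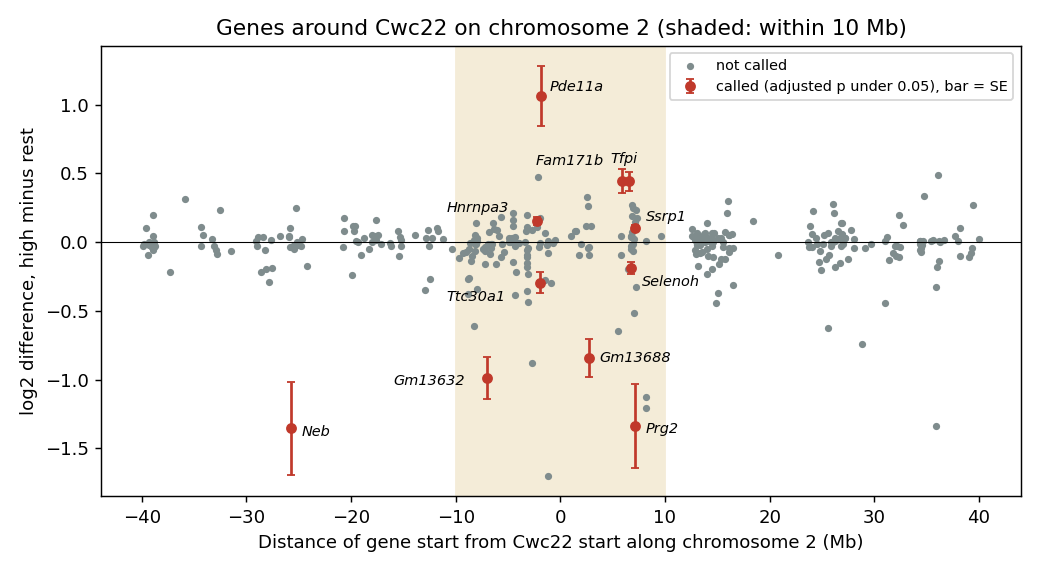
Log2 difference between Cwc22-high libraries and the rest (vertical) for tested genes within 40 Mb of Cwc22 on chromosome 2, against distance from Cwc22 in Mb (horizontal), with called genes in red with SE bars. The 10 called neighbours lie within the shaded 10 Mb on both sides and in both directions, and Neb is the single call between 10 and 40 Mb.

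The 10 tested genes closest to Cwc22, 5 on each side, were not among the calls of edgeR or limma, and 2 of them had an unadjusted p under 0.05. On the proximal side the log2 differences were 0.014 ± 0.13 for Zfp385b, -0.0084 ± 0.046 for Sestd1, -0.30 ± 0.094 for Ccdc141, -1.70 ± 0.51 for Ttn (titin of striated muscle, called by DESeq2) and -0.081 ± 0.043 for Plekha3. On the distal side they were 0.041 ± 0.027 for Ube2e3, 0.084 ± 0.11 for Itga4, 0.082 ± 0.15 for Cerkl, -0.092 ± 0.078 for Itprid2 and -0.016 ± 0.084 for Pde1a. Zfp385b, the nearest at 0.47 Mb, had medians of 2.21 and 2.18 CPM. Zfp385b, Sestd1, Ube2e3, Itga4, Cerkl and Pde1a changed sign under at least 1 other setting.

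Farther along chromosome 2, Neb and Slc13a3 passed beside Il1f9. Neb, the thin-filament protein nebulin of skeletal muscle, had medians of 1.96 and 2.09 CPM, and its log2 difference of -1.36 ± 0.34 (edgeR adjusted p = 0.034) came with a highest value of 367.9 CPM in the rest and 7.99 CPM in the Cwc22-high libraries. Slc13a3, a sodium-coupled dicarboxylate transporter, had medians of 1.19 and 1.20 CPM and a log2 difference of 0.69 ± 0.18 (edgeR adjusted p = 0.045), with 54.97 CPM in mouse DO021 and 2.53 CPM in the next highest Cwc22-high library. Neither gene was called by limma. Without mouse DO021 the log2 difference was -1.34 for Neb (edgeR adjusted p = 0.069) and -0.26 for Slc13a3 (edgeR adjusted p = 0.97).

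Splicing genes were measured as a set because of the known role of CWC22, although counts per gene hold no exon or intron levels and splicing itself was not measured. Across 5 lists (exon junction complex, nonsense-mediated decay factors, spliceosome, SR and hnRNP proteins, and known targets of decay), 1 tested gene was called, Hnrnpa3, described above as a neighbour. Over all tested genes 0.239% were called. Each list held more genes with a positive than with a negative log2 difference, called or not. In the order given, these were 11 and 5, 11 and 6, 34 and 14, 25 and 16, and 18 and 7 genes. Whether this lean goes beyond that of other genes was not tested. The median log2 difference over these lists was 0.014, beside 0.00083 over all genes, and all but 12 of the genes lay within 0.1 of no difference. DESeq2 and limma each called the same number, and 14 of the genes (9.66%) had an unadjusted p under 0.05, beside 5.14% of all tested genes.

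None of the 16 exon junction complex genes was called by edgeR, DESeq2 or limma, and 1 had an unadjusted p under 0.05. Their median log2 difference was 0.023, and the 3 with the lowest p were Ddx39b, an mRNA export helicase (0.074 ± 0.025, 95% interval from 0.025 to 0.12), Acin1 (0.044 ± 0.023) and Pym1, which takes the complex apart (0.054 ± 0.034). Of the 17 decay factors none was called by any of the 3 tools and 4 had an unadjusted p under 0.05, with Smg8 at 0.089 ± 0.028, Pnrc2 at -0.083 ± 0.031 and Smg6, the decay endonuclease, at 0.067 ± 0.031. The 48 spliceosome genes had 0 calls from edgeR, DESeq2 and limma and 5 with an unadjusted p under 0.05, led by Xab2 (0.064 ± 0.025), Syf2 (0.058 ± 0.025) and Sf3b1 (0.032 ± 0.015), all log2 differences with SE.

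Among 41 SR and hnRNP genes, Mbnl2 (-0.072 ± 0.037) and Srsf4 (0.061 ± 0.033) followed Hnrnpa3. Of the 25 known decay targets, whose levels rise when decay is blocked, 0 were called by edgeR, DESeq2 and limma and 3 had an unadjusted p under 0.05. Their median log2 difference was 0.036, and those of lowest p were Upp1 (-0.27 ± 0.089), Snhg12 (0.16 ± 0.055) and Snhg1 (0.13 ± 0.055). Protein-coding genes of 1, 2 to 5, 6 to 10, 11 to 20 and over 20 exons had median log2 differences of -0.0079, -0.0065, -0.0008, 0.0048 and 0.0078.

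Many of the remaining calls on other chromosomes rested on mouse DO021. Without mouse DO021, 26 genes were called (0.141%), so 18 of the 44 calls were lost, and in 15 of those 18 DO021 was the highest Cwc22-high library. Siglece, a sialic acid receptor of myeloid cells, held 96.4 CPM in DO021, 4.97 in the next highest Cwc22-high library and a median of 1.87 against 1.93 in the rest, for a log2 difference of 1.08 ± 0.14 (edgeR adjusted p = 1.19e-10) that became -0.074 without DO021. Ccdc88b (104.8 CPM in DO021, 13.7 in the next, log2 difference 0.60 ± 0.11, edgeR adjusted p = 8.01e-05) and Nrxn2, a synaptic adhesion protein (106.1 CPM and 12.7, 0.57 ± 0.11, edgeR adjusted p = 2e-04), went to 0.016 and 0.0083. In these 3 genes 1 library carried the call.

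**Figure D5:**
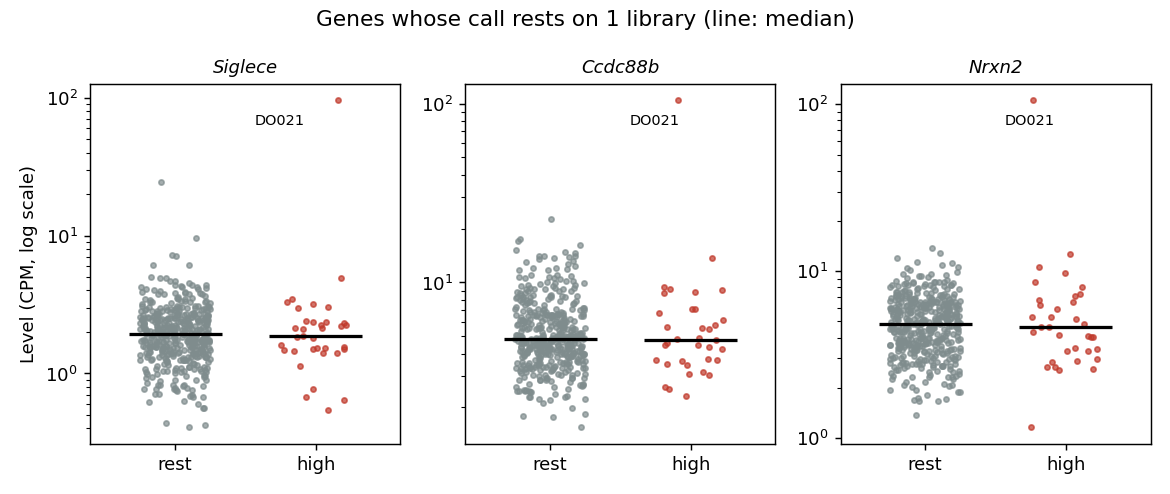
Levels in CPM (log scale) of Siglece, Ccdc88b and Nrxn2 in each library, with the other libraries in grey, the 35 Cwc22-high libraries in red and lines at the medians. In each panel 1 red point, mouse DO021, lies at 96.4 to 106.1 CPM while the other red points overlap the grey ones.

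The genes called lower on other chromosomes were Gm5641, described above, and 3 others. Inha, the inhibin alpha subunit, and Cyp11a1, the first enzyme of steroid hormone synthesis, had medians of 0.65 and 0.53 CPM and of 0.28 and 0.27 CPM (Cwc22-high and rest). Their log2 differences of -1.85 ± 0.40 and -2.33 ± 0.54 (edgeR adjusted p = 0.003 and 0.011) came with highest values of 635.9 and 1083 CPM in the rest, and neither was called by limma. Serpinb2, a plasminogen activator inhibitor, fell by 0.70 ± 0.17 from a median of 1.70 to 0.97 CPM (edgeR adjusted p = 0.034), with 7 of 35 Cwc22-high libraries above the median of the rest. Its log2 difference was -0.66 in limma (adjusted p = 0.063) and -0.67 without DO021 (edgeR adjusted p = 0.091), and its call was made in 8 of 16 other settings.

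Cell type markers gave no call from edgeR or limma, and DESeq2 called 1, Tnnt3. Beside the calls of myeloid genes, the 10 macrophage markers summed to 288.5 to 3054 CPM in the Cwc22-high libraries (1840 in DO021) and 240.6 to 6111 CPM in the rest, with a median log2 difference of -0.082 and 1 of 10 with an unadjusted p under 0.05 (Trem2 -0.81 ± 0.29, Lyz2 -0.24 ± 0.14, Adgre1 0.31 ± 0.16). Adgre1 alone held 730.1 CPM in DO021, 292.3 in the next highest Cwc22-high library and at most 645.1 in the rest. Its log2 difference was -0.22 without DO021. Beside the muscle gene Neb, 4 muscle markers had a median log2 difference of -1.34 (3 with an unadjusted p under 0.05, Tnnt3 -1.68 ± 0.49, Ckm -2.02 ± 0.73, Mylpf -0.999 ± 0.36), and the 5 in the files summed to 1.03 to 283.04 CPM against 1.26 to 5459 CPM. The part of these cell types in the calls was not tested.

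Of the other markers, 6 B cell genes had a median log2 difference of -0.38 (2 with an unadjusted p under 0.05, Cd22 -0.52 ± 0.21, Ms4a1 -0.47 ± 0.23) and 10 adipocyte genes one of 0.067 (1 with an unadjusted p under 0.05, Cfd 0.45 ± 0.20, Lipe 0.092 ± 0.058, Pnpla2 0.090 ± 0.080). The T cell (0.075, Cd8a 0.22 ± 0.27, Cd3e 0.14 ± 0.17, Cd3d 0.15 ± 0.19), endothelial (-0.0012, Cdh5 -0.036 ± 0.048, Pecam1 -0.020 ± 0.044, Kdr 0.018 ± 0.059), progenitor (0.030, Dpp4 0.084 ± 0.084, Pi16 0.055 ± 0.087, Ly6a 0.048 ± 0.073) and mesothelial lists (0.043, Upk3b 0.15 ± 0.11, Krt19 -0.21 ± 0.17, Msln 0.11 ± 0.12) had 0 members with an unadjusted p under 0.05.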

How the data were processed

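RNA from adipose tissue of 468 Diversity Outbred mice was sequenced from polyadenylated RNA with a spike-in mix. The authors deposited expected counts per gene, from EMASE within GBRS, which uses expectation maximization, against a transcriptome joining the founder strains, so that reads fitting several transcripts are divided. The submitters' processing notes name GRCm38 and DESeq2. A deposited table of variance-stabilised values was not used.

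Counts were rounded and tested with edgeR 4.0.16 in R 4.3.3 (quasi-likelihood F test, TMM scaling, at least 10 counts in 50% of libraries, mouse number and presence of Ddx3y counts as covariates). Cwc22 was left out of the calls. limma 3.58.1, DESeq2 1.42.0 and other settings were alternatives, and the scripts were tested on simulated data. CPM values used the whole column sum. All libraries carried 1 group label, each from a separate mouse, so the spread joins animals and assay, and 0 sample columns were left unused. Estimates below a millionth of a CPM are printed as 0. Single permutation tests used 100000 resamples, and relations within libraries used log2(CPM + 0.1).

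Named genes were Cwc22, the 5 nearest tested genes on each side, called genes within 10 Mb (up to 15), up to 8 called genes in each direction outside chromosome 2 with a mean of 1 CPM or more, the 3 genes of lowest p in each list (1 of them is not reported here), and up to 5 called genes elsewhere on chromosome 2. The repeat-sharing genes, Gm13697, Gm5940, Hdx, Gm7340, Gm11851, Xdh, Olfr1033 and Olfr1034 were added after their values were seen. The members and gene lists were chosen with earlier results of these data known. The upper limit of a share covers counting error only.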

Additional observations from a re-analysis of the deposited data

Results flagged for a closer look

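The difference between Cwc22-high libraries and the rest depended on Ddx3y status for 23 of 18379 genes (0.125%, edgeR test of the interaction, adjusted p under 0.05), 5 with a positive and 18 with a negative interaction (difference in libraries with Ddx3y counts minus that in libraries without). Of the genes named by the rule, 3 were among them: Siglece with an interaction of -1.70 on the log2 scale, Nrxn2 with -1.20 and Ccdc88b with -0.98. All 3 have their highest Cwc22-high value in mouse DO021, whose library holds no Ddx3y counts. Without DO021 2 genes were called, and limma and counts capped at the 99th percentile called 0, with 912 and 1293 genes at an unadjusted p under 0.05.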

How the results depend on the processing

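Of the 44 calls, 8 were made under all 16 other settings, of which the cuts at 3 and 10 times the median choose the same libraries and could not change a call (Gm19757, Gm42900, Il1f9, Gm11261, Gm42764, Gm44873, Tfpi and Gm13632). The count of 44 became 67 with DESeq2 (36 higher and 31 lower, beside 34 and 10), 21 with limma, 20 with counts capped at the 99th percentile, 17 in libraries with Ddx3y counts, 26 without mouse DO021 and 22 without mice DO021, DO094 and DO137, the last 2 settings added after seeing the data. Within 10 Mb the count of 10 became 5 in libraries without and 3 in libraries with Ddx3y counts, which hold fewer samples. Outside chromosome 2 the 31 became 50 with DESeq2, 52 without the filter, 51 without covariates, 10 with limma, 11 with capped counts, 13 with Ddx3y counts only, 16 without DO021 and 12 without the 3 mice. The single call of the splicing lists, Hnrnpa3, became 0 in libraries with Ddx3y counts (1272 genes at an unadjusted p under 0.05) and without the 3 mice. The interaction count of 23 became 0 with limma and with capped counts and 2 without DO021. Mouse number and the Ddx3y share kept their direction and their side of the threshold with the 10% of libraries of lowest depth left out. The cuts at 3 and 10 times the median, the only other settings tried for them, could not change them.

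Signs turned in these named genes, none of them called after the turn (log2 differences). In libraries with Ddx3y counts, Zfp385b stood at -0.082, Ube2e3 at -0.0068, Itga4 at -0.071, Pde1a at 0.064, Siglece at -0.050, Nrxn2 at -0.18, Adgre1 at -0.39, Cdh5 at 0.031, Pecam1 at 0.048, Mylpf at 0.0048 and Slc13a3 at -0.13. In libraries without them, Sestd1 stood at 0.094, Cd3e at -0.12, Cd3d at -0.15 and Kdr at -0.072. Without DO021, Siglece stood at -0.074, Adgre1 at -0.22 and Slc13a3 at -0.26, and without the 3 mice Siglece at -0.12, Nrxn2 at -0.030, Adgre1 at -0.21, Ly6a at -0.0082 and Slc13a3 at -0.29. With limma Adgre1 stood at -0.11 and Slc13a3 at -0.030, and with capped counts Slc13a3 at -0.078. Without covariates Zfp385b stood at -0.064, Itga4 at -0.0051 and Pde1a at 0.033. With the 10% of libraries of lowest depth left out, Cerkl stood at -0.039. The causes were not tested. No paired analysis was possible because the labels put every library in 1 group.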
